A study of Mus musculus with 12 samples.

Results

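Poly(A) RNA of 1/8 of a mouse germinal vesicle (GV) oocyte was compared with that of whole GV oocytes, both amplified for 18 cycles. The libraries were chosen by their labels: 2 from 1/8 of an oocyte and 2 from whole oocytes at 18 cycles, or 4 of the 12 samples of the series. The whole series held whole oocytes amplified for 10, 14 or 18 cycles and 1/2, 1/4 and 1/8 of an oocyte at 18 cycles, with 2 libraries in each of these 6 groups. Oocytes came from a B6D2F1 female 12 weeks old and were collected in M2 medium with milrinone, a phosphodiesterase inhibitor that holds meiotic arrest by keeping cAMP high, in every group. Each whole-oocyte library came from its own oocyte, whereas the fractions were dilutions of the lysates of 2 other oocytes, so oocyte and amount cannot be told apart. A fixed amount of the ERCC spike-in mix, a set of synthetic poly(A) RNAs, was added to every lysate after dilution.

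A GV oocyte is a fully grown oocyte arrested in meiotic prophase with an intact nuclear envelope. Transcription ends during this stage, and the paper describes populations of fully grown oocytes that differ in transcriptional activity. The labels do not say to which of them the oocytes used here belonged. Through maturation the oocyte lives on stored maternal mRNA, much of it kept with a short poly(A) tail and translated or destroyed when meiosis resumes. The stored mRNAs encode the egg coat, the proteins that assemble under the oocyte cortex, the kinases and ubiquitin ligases of the meiotic divisions, and the factors that reprogram chromatin after fertilization.

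Sequencing gave 3017069 and 1706478 gene counts in the whole oocytes and 11404262 and 1702062 in the 1/8 libraries. The deepest and the shallowest library of the comparison were therefore the replicates of 1/8. Oocyte mRNAs were abundant in all 4 libraries. Zp3, which encodes a protein of the egg coat, had 4819.9 and 3848 normalized counts in the whole oocytes and 8688 and 5689 in 1/8. Gdf9, a growth factor that the oocyte sends to its cumulus cells, had 5921 and 6388 and 14525 and 11918. Markers of other ovarian cells were scarce. The 13 granulosa and cumulus markers together held 67.9 and 28.7 CPM (counts scaled to equal library totals) in the whole oocytes and 78.3 and 77.0 in 1/8. Cyp19a1 and Nr5a2 carried most of these counts except in whole-oocyte replicate 1, where Inha also had 52, the granulosa factor Foxl2 had 11 counts in whole-oocyte replicate 1 and 0 in the other 3 libraries, and Fshr had 1 count in all. The 14 markers of theca, stroma and blood held 14.6 and 6.45 CPM in the whole oocytes and 6.84 and 5.88 in 1/8. Of these markers 8, among them the haemoglobin genes and Ptprc, were at 0 in all 4 libraries. Whole oocytes at 10 cycles held 106.6 and 4.90 CPM of these 14 markers, and those at 14 cycles 15.4 and 33.5. Granulosa and cumulus markers held 171.7 and 85.6 CPM at 10 cycles and 108.3 and 165.3 at 14 cycles.

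The whole oocytes at 18 cycles stood apart from the whole oocytes at 10 and 14 cycles, and fold changes given without another reference rest on them. Across the 14788 genes tested, the correlation of log10(CPM + 1) between a 1/8 library and a whole oocyte at 18 cycles ran from 0.839 to 0.892, and between a 1/8 library and a whole oocyte at 10 or 14 cycles from 0.945 to 0.960. The libraries of 1/2 and 1/4 lay with the whole oocytes at 18 cycles, at 0.931 to 0.953, more than with those at 10 and 14 cycles, at 0.884 to 0.929, and 1/8 had 0.882 to 0.931 with 1/2 and 1/4. Genes are not independent replicates, and the coefficients describe. Against the whole oocytes at 10 cycles, edgeR called 0 of 18041 genes lower and 0 higher in 1/8. There 2275 genes had an unadjusted p under 0.05, and DESeq2 called 18 lower and 26 higher. Against those at 14 cycles, edgeR again called 0 in each direction, with 2516 genes at an unadjusted p under 0.05 and with 46 lower and 38 higher by DESeq2. Values against both references are given with the amounts, the largest rises, some of the largest falls and the medians of lists. All these comparisons share the 1/8 libraries.

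**Figure D1:**
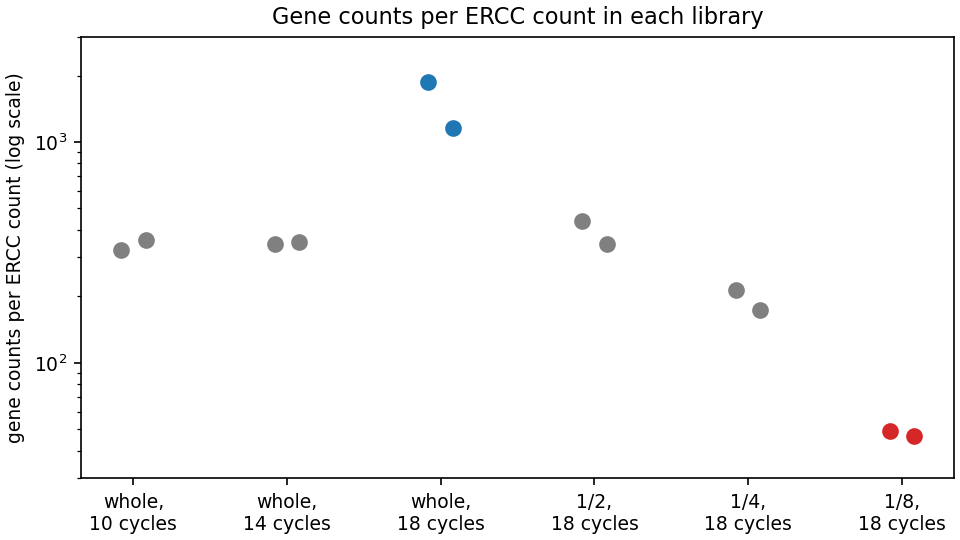
Counts on genes per ERCC count (log axis) in each of the 12 libraries, 1 point per library. The 1/8 libraries sit at 49.3 and 46.5, and the whole oocytes at 18 cycles at 1873 and 1158.

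The spike-in was added after dilution in the same amount, so counts on genes per ERCC count serve as a measure of the amount of oocyte RNA. They came to 1515 ± 506 (SD, n = 2) in the whole oocytes and 47.9 ± 1.95 (n = 2) in 1/8, so that 1/8 held 3.16% of the whole-oocyte value, against the 12.5% of the dilution. The measure was not the same for whole oocytes of equal input: it was 342 ± 25.8 (n = 2) at 10 cycles and 350.2 ± 4.84 (n = 2) at 14 cycles. Against these, 1/8 held 14.0% and 13.7%. At 18 cycles 1/2 of an oocyte had 439 and 344 and 1/4 had 214 and 174, so that 1/8 held 12.2% of the mean of 1/2 and 24.7% of that of 1/4, where dilution gives 1/4 and 1/2. The difference of -4.94 between 1/8 and whole oocytes at 18 cycles on the log2 scale had the smallest two-sided p that permutation of 2 libraries against 2 can give, 1/3. ERCC counts were few in the whole oocytes, at 1611 and 1474, or 0.0534% (95% Wilson interval 0.0508 to 0.0560) and 0.0863% (0.0820 to 0.0908) of all counts, and 30 ERCC molecules were found in each. In 1/8 they numbered 231470 and 36593, or 1.99% and 2.10%, on 54 and 50 molecules. Of the ERCC molecules, 23 were found in 1/8 and in neither whole oocyte.

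Maternal mRNAs of nearly every kind were scarcer per spike-in RNA in 1/8 than in whole oocytes at 18 cycles. They were scarcer by very different amounts, with egg coat mRNAs the least so among the lists and mRNAs such as those of the kinase Pim3 and the heat shock protein Hspb1 among the most. The test called 12937 of 14788 genes lower (87.5%) and 0 higher (0.0%) with edgeR at an adjusted p under 0.01; 0 genes were higher at an unadjusted p under 0.05, and DESeq2 called 0 higher. The median log2 fold change was -4.92, and from the 5th to the 95th percentile the values ran from -7.40 to -2.36. A dilution to 1/8 corresponds to -3 on this scale, and 90.1% of the genes lay below it. For all gene counts together the log2 difference was -2.83 against whole oocytes at 10 cycles and -2.87 against those at 14 cycles. The egg coat genes, at a median of -3.16, and the oocyte NLRP genes, at -3.28, were near it, and replication-dependent histones had -5.94 and mitochondrial ribosomal proteins -5.36. Single genes spread further. Rpa3, a subunit of the complex that coats single-stranded DNA, had -1.25 (adjusted p = 0.0579) and did not pass the test, nor did Anapc10, a subunit of the anaphase-promoting complex, at -1.29 (adjusted p = 0.089). Pim3, a serine/threonine kinase, fell far more (-9.57, adjusted p = 4.5e-15), and Ubn1, a subunit of a histone H3.3 chaperone (-7.81, adjusted p = 1.64e-15).

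Median-ratio scaling takes this shift of the whole transcriptome out and compares composition. The genes called served many functions of the oocyte, from its coat to chromatin, ribosomes and mitochondria. edgeR called 1281 of 14788 genes lower in 1/8 (8.66%) and 1047 higher (7.08%) at an adjusted p under 0.01, and 3091 and 2710 at an unadjusted p under 0.05. The median log2 fold change was 0.03, with 90% of the values between -2.52 and 2.52. Of the called genes, 1276 were below -1 and 1046 above 1, and 174 were below -3 and 58 above 3. Of all called genes 45.0% were higher, and this balance depended on the scaling. With the study's constGenes as the reference, of which 54 of 147 had counts in all 8 libraries at 18 cycles, the median moved to -0.65 and 2964 genes were called lower and 221 higher (6.94% of the calls). With total gene counts it moved to 0.22, with 993 lower and 1418 higher (58.8%). Without whole-oocyte replicate 1, 802 genes were lower and 289 higher, and 1020 of the 2328 calls were kept. Without whole-oocyte replicate 2, 663 were higher, and without 1/8 replicate 2, 684 were lower and 623 higher. No gene was called in the opposite direction under any alternative.

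**Figure D2:**
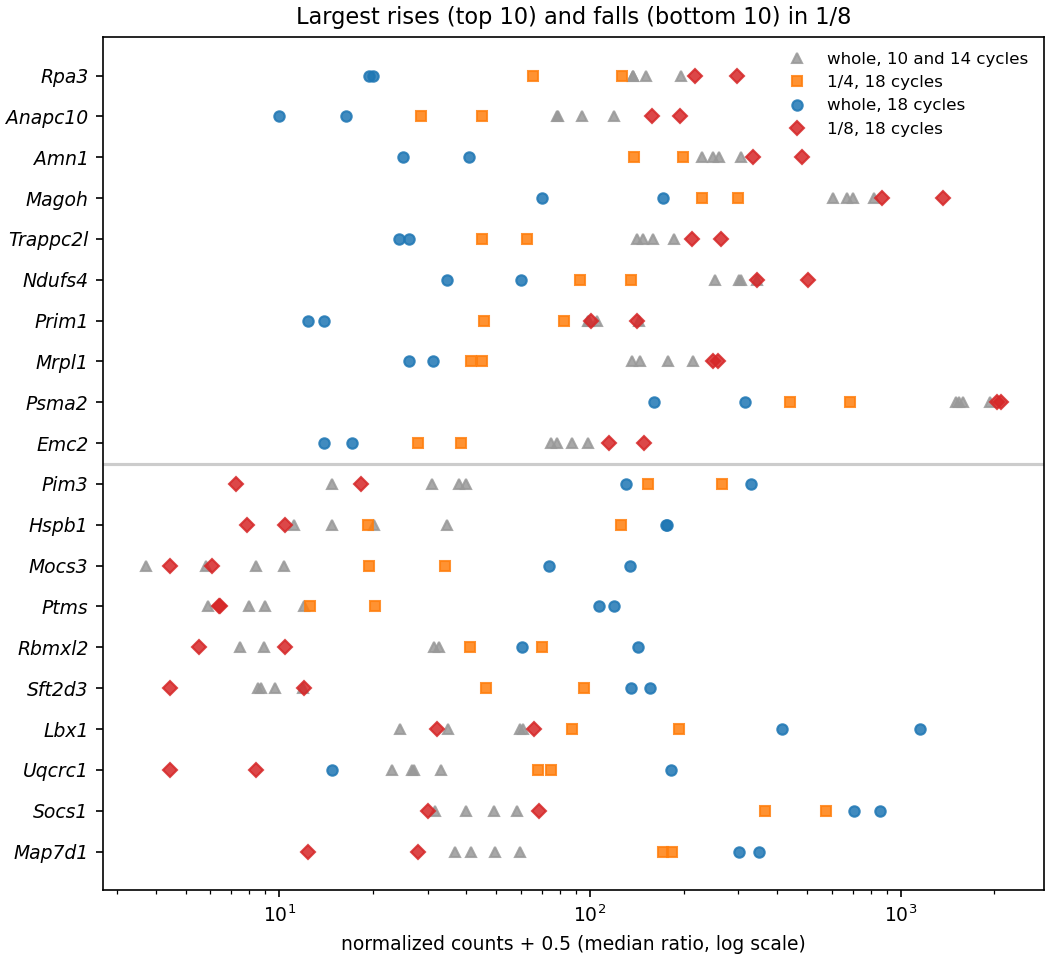
Normalized counts plus 0.5 (median ratio, log axis) of the 10 genes with the largest rises and the 10 with the largest falls, 1 point per library. For Rpa3 the whole oocytes at 18 cycles lie near 19 and all other libraries drawn at 65.1 or more.

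The largest rises in 1/8 included genes of DNA replication, cell-cycle ubiquitination, RNA processing, mitochondria and protein turnover. Rpa3 (ENSMUSG00000012483, chromosome 6, 8255936 to 8259173 on GRCm38) had 19.5 and 19.0 normalized counts in the whole oocytes and 218 and 297 in 1/8. The groups did not overlap, and it rose by 3.72 ± 0.47 (SE) on the log2 scale (adjusted p = 1.64e-05). Anapc10 (ENSMUSG00000036977, chromosome 8, 79711820 to 79779059), which helps the anaphase-promoting complex to hold its substrates, had 15.9 and 9.48 in the whole oocytes and 158 and 194 in 1/8, a rise of 3.71 ± 0.51 (adjusted p = 3.06e-05). Magoh (ENSMUSG00000028609, chromosome 4, 107879755 to 107887424), a core protein of the exon junction complex that marks spliced mRNA, had 120.2 ± 71.5 in whole oocytes and 1118 ± 349 in 1/8 (SD, n = 2 each) and rose by 3.26 (adjusted p = 1.12e-05). Psma2 (ENSMUSG00000015671, chromosome 13, 14613240 to 14674236), a ring subunit of the proteasome core, was the most abundant of these genes, at 160.1 and 315 in the whole oocytes and 2045 and 2099.6 in 1/8, and rose by 3.15 (adjusted p = 7.07e-06). Prim1, the catalytic subunit of the primase that starts DNA strands, rose from 13.4 and 11.9 to 101 and 141 normalized counts (log2 fold change 3.21, adjusted p = 0.000174). Ndufs4, a subunit of respiratory complex I, rose by 3.22 (adjusted p = 1.44e-05), and Mrpl1, a protein of the mitochondrial ribosome, by 3.18 (adjusted p = 2.05e-05). The remaining 3 of the 10 were Amn1, related to a yeast antagonist of mitotic exit, at 3.69, Trappc2l, of a complex that tethers transport vesicles, at 3.25, and Emc2, of the complex that inserts proteins into the endoplasmic reticulum membrane, at 3.14.

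In these 10 genes 1/8 was closer to the whole oocytes at 10 and 14 cycles than to those at 18 cycles, but they were chosen for their distance from the latter, which favours this. Magoh had 605 and 819.9 normalized counts at 10 cycles and 669.8 and 699 at 14 cycles. Against 10 cycles the log2 fold changes of the 10 genes ran from -0.05 in Prim1 to 1.14 in Anapc10, and against 14 cycles from 0.21 to 0.81; none passed edgeR's test, the lowest unadjusted p values being 0.00269 and 0.0226. Against 1/4 of an oocyte, diluted from the same lysates, the values ran from 0.90 in Prim1 to 2.57 in Mrpl1. There 7 of the 10 passed, beside 1.54% of all genes called higher. The 10 genes were chosen for high values in the same 1/8 libraries, which favours this too.

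The largest falls included genes of signalling, stress defence, transcription and vesicle transport. Pim3 (ENSMUSG00000035828, chromosome 15, 88862186 to 88865726) had 329 and 130.4 normalized counts in the whole oocytes and 6.76 and 17.8 in 1/8. It fell, with a log2 fold change of -4.57 ± 0.55 (SE, adjusted p = 1.15e-05), with no overlap between the groups. Hspb1 (ENSMUSG00000004951, chromosome 5, 135887919 to 135889563), a small heat shock protein, was nearly equal in the whole oocytes, at 176 and 175, and had 7.35 and 9.90 in 1/8 (log2 fold change -4.44, adjusted p = 7.44e-05). Socs1 (ENSMUSG00000038037, chromosome 16, 10782240 to 10785536), a feedback inhibitor of cytokine receptor signalling, had 779.9 ± 104 in whole oocytes and 48.8 ± 27.0 in 1/8 (SD, n = 2 each) and fell (-3.87, adjusted p = 4.3e-06). Lbx1, a homeobox factor of muscle precursors and spinal neurons, had 413 and 1152 in the whole oocytes and 65.6 and 31.7 in 1/8 (log2 fold change -3.89, adjusted p = 2.05e-05). Map7d1, which binds microtubules, fell (-3.86, adjusted p = 8.23e-06), and Mocs3, an enzyme of molybdenum cofactor synthesis and tRNA thiolation, (-4.32, adjusted p = 0.000152). Falls also came in Ptms, an acidic nuclear protein, at -4.23, in Sft2d3, of vesicle transport, at -3.95, and in Rbmxl2, a germ cell RNA-binding protein, at -3.96. Uqcrc1, a core subunit of respiratory complex III, had 182 and 14.2 in the whole oocytes and 7.94 and 3.96 in 1/8, so its log2 fold change of -3.88 rested on whole-oocyte replicate 1. In Uqcrc1 adjusted p was 0.0175 without 1/8 replicate 1, 0.0105 without 1/8 replicate 2 and 0.44 without whole replicate 1. In Rbmxl2 adjusted p was 0.0123 without 1/8 replicate 1.

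For these 10 falls, chosen in the same way, only Lbx1, Sft2d3, Pim3 and Uqcrc1 are given against the other references here, and they divided. Lbx1 had a log2 fold change of 0.29 against 10 cycles and 0.16 against 14 cycles, and Sft2d3 -0.09 and 0.10, so that 1/8 lay at the level of the whole oocytes with fewer cycles. Pim3 had -1.48 and -1.89, and Uqcrc1 -2.03 and -1.95, with 1/8 the lowest group of the 3. Against 1/4, 7 of the 10 passed the test, led by Pim3 at -4.41 (adjusted p = 9.66e-05). The 10 falls were chosen for low values in the same 1/8 libraries, which favours this. Over all genes, edgeR called 506 (3.42%) lower and 228 (1.54%) higher in 1/8 than in 1/4, 2229 and 1755 at an unadjusted p under 0.05. Without 1/4 replicate 1 there were 90 and 12, without 1/4 replicate 2 292 and 37, without 1/8 replicate 1 291 and 147, and without 1/8 replicate 2 111 and 47.

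Among called genes of other biotypes with a mean of at least 50 counts and no overlap between the groups, the 3 largest rises and 3 largest falls are named here. Of these 6 genes 3 overlap exons of other genes, as did 6087 of all 14788 genes tested. The lincRNA 1700030N03Rik (ENSMUSG00000100969, chromosome 19, 3053071 to 3197732) had 4.89 and 7.11 normalized counts in the whole oocytes, 97.1 and 123 in 1/8 and 80.2 and 95.5 in the whole oocytes at 10 cycles. The antisense transcript Gm13990 rose by 3.39 (adjusted p = 2.11e-05) and BB557941 by 3.19 (adjusted p = 0.000171). Gm9768, which overlaps exons of Klhl21 on the other strand, had 413 and 183 in the whole oocytes and 10.0 and 0 in 1/8. It fell (-5.28, adjusted p = 7.3e-06), but the fold is uncertain because 1/8 replicate 2 had 0 counts. Over the alternatives it ran from -11.1 to -4.57. Gm15672, which overlaps Dnaaf5 and Prkar1b, fell (-5.02), and E230029C05Rik, opposite Eed, (-4.51, adjusted p = 5.52e-05 and 1.54e-05). Their folds ran over the alternatives from -11.3 to -3.88 and from -7.18 to -3.81. Eed, which encodes the Polycomb subunit that binds methylated histone H3, was itself lower at -1.86 (adjusted p = 0.000487). In Eed adjusted p was 0.0105 without 1/8 replicate 1 and 0.0142 without whole replicate 2. Reads of such overlapping genes may be assigned to either gene, so their values are uncertain. The coding genes Rac1, Orai1, Stag2, Fzr1, Ube2s, Suv39h2, Zfp36l2, Exosc4, Exosc6, Ythdc1, Mcm9, Orc5, Foxo1, Gclm, Dusp1, Cox4i1, Eif4a2 and Pou5f1, taken up below, also overlap exons of other genes.

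Of the 8 genes with the most counts in the whole oocytes, 5 fell in 1/8, beside 8.66% of all genes, but they were chosen by counts in the reference libraries, which favours falls. Khdc3 (ENSMUSG00000092622, chromosome 9, 73101836 to 73104438), of the subcortical maternal complex, had 55918 and 33898 normalized counts in the whole oocytes and 14306 and 6808 in 1/8, a log2 fold change of -2.09 ± 0.35 (SE, adjusted p = 0.000215). Its exons are shared by the readthrough gene Gm20509, which fell (-1.91, adjusted p = 0.000217), so the division of reads between them is uncertain. Parp12, an ADP-ribosyltransferase, had 15382 and 24347 in the whole oocytes and 4111 and 3793 in 1/8, a log2 fold change of -2.33 (adjusted p = 3.51e-05). Zar1 (ENSMUSG00000063935, chromosome 5, 72576806 to 72581254), which holds stored mRNAs silent in the oocyte cytoplasm, fell from 19264 ± 228 to 6010.3 ± 1617 (SD, n = 2 each; log2 fold change -1.68, adjusted p = 0.00021). Cd164l2, which overlaps Gpr3 on the other strand, fell (-2.11, adjusted p = 3.41e-05). Zbed3 had -0.94 (adjusted p = 0.027), the deubiquitinating enzyme Uchl1 -0.96 (adjusted p = 0.0172) and the ribosomal RNA gene CT010467.1 0.36 (adjusted p = 0.48), and these 3 did not pass. Khdc3 and Zar1 were lower in 1/8 than in 1/4 as well, at -2.54 and -1.78, and had 0.30 and 0.40 against the whole oocytes at 10 cycles.

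**Figure D3:**
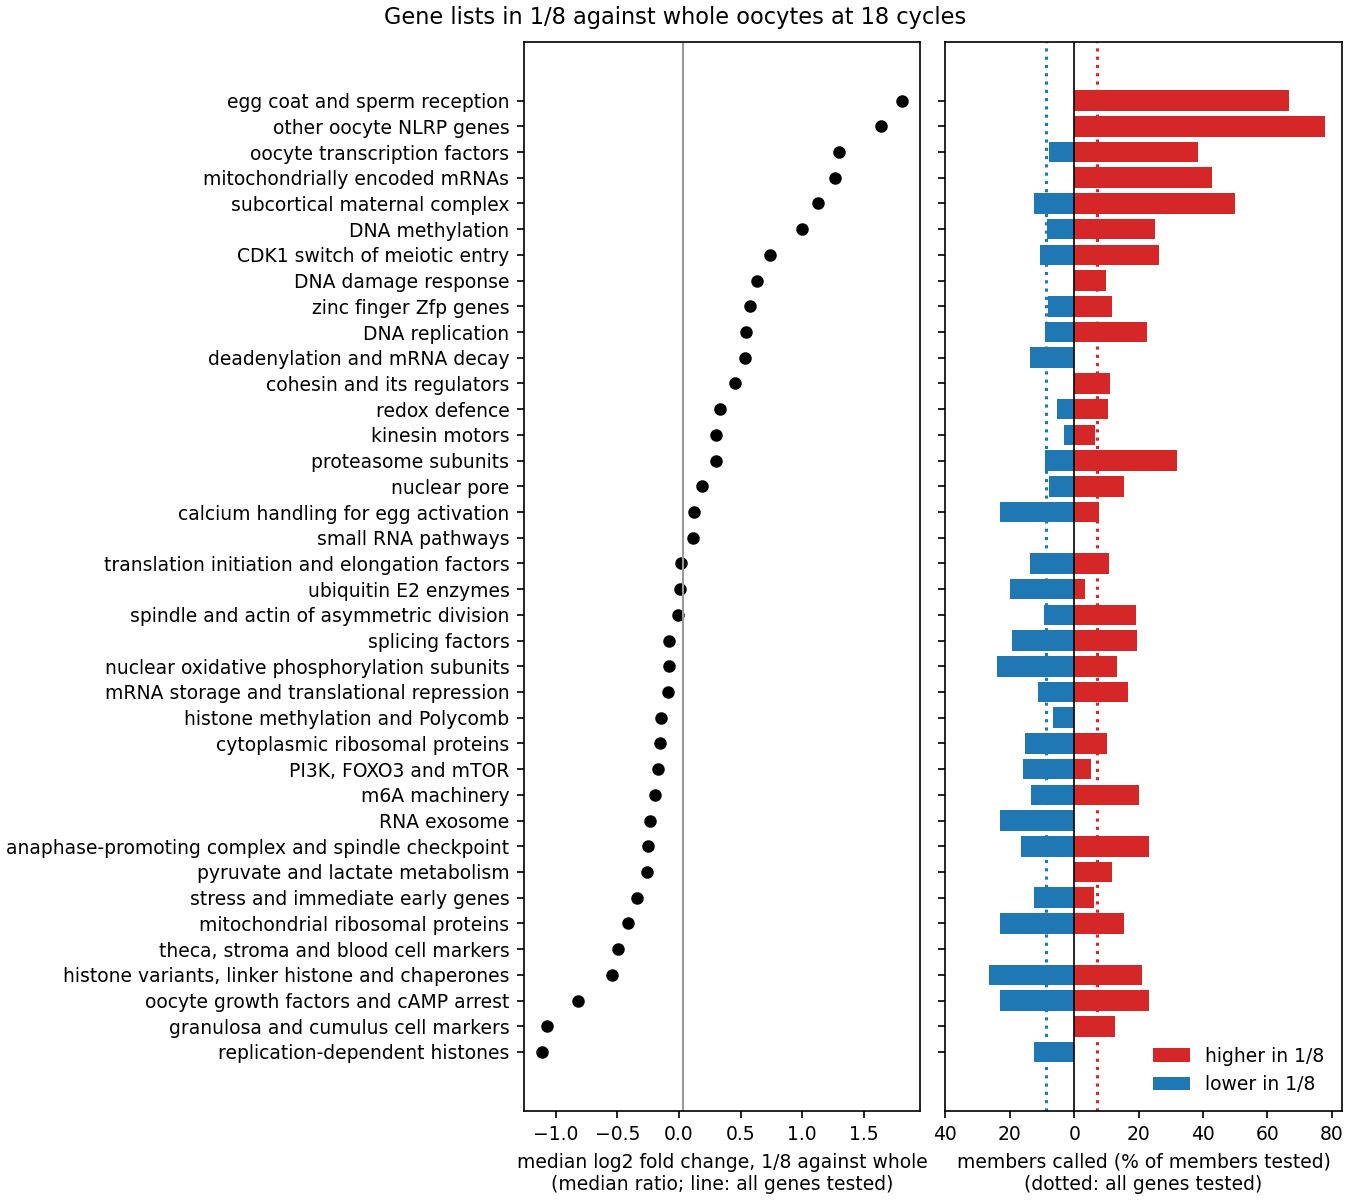
Median log2 fold change (left) and share of tested members called higher or lower (right, %) for the 36 gene lists and 2 lists of other cell types' markers described in the text. The line marks the median of all genes tested and the dotted lines the share of all genes called in each direction.

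The egg coat and surface bind sperm. Of 9 such genes tested, 6 rose and the other 3 did not pass, and their median log2 fold change was 1.81 beside 0.03 over all genes. Oosp1 (ENSMUSG00000041857, chromosome 19, 11667460 to 11691150), an oocyte-secreted protein, had 608 and 1216 normalized counts in the whole oocytes and 4899.9 and 7339 in 1/8, a rise of 2.75 ± 0.33 (SE, adjusted p = 1.15e-05). Its relatives Oosp2 and Oosp3 rose by 2.57 and 2.43, the sperm-egg fusion factor Cd9 by 2.65 and Izumo1r, the egg receptor of sperm IZUMO1, by 1.81. Zp2, which binds sperm in the egg coat, had 4134 and 2362 in the whole oocytes and 8581 and 8264 in 1/8 and rose by 1.37 (adjusted p = 0.00169). In Zp2 adjusted p was 0.146 with constGenes, 0.0104 without 1/8 replicate 1 and 0.0278 without whole replicate 2. Of the egg coat genes tested, none were called lower and 66.7% were called higher (all genes 8.66% and 7.08%). With constGenes none were called lower and 4 higher. Fewer rises were also called without 1/8 replicate 1 and without whole replicate 2. In every list below, such percentages are shares of the tested members called in that direction, not sizes of change. Counts are given for constGenes and for left-out libraries that moved a count beyond a fixed ratio. Smaller moves are not listed. Egg coat genes had a relative median (list minus all genes) from 1.42 without 1/8 replicate 1 to 1.96 without 1/8 replicate 2, and a median of 0.01 and -0.32 against 10 and 14 cycles. Zp3 had 0.73 (adjusted p = 0.0582), Zp1 0.82 (adjusted p = 0.0279) and Astl, the protease that cleaves ZP2 after fertilization, 0.85 (adjusted p = 0.0915). Against 1/4 the median of the list was 0.30.

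Growth factors and the cAMP system that holds meiotic arrest split in direction. Of 13 tested, 3 rose and 3 fell, with a median of -0.82. Bmp15 (ENSMUSG00000023279, chromosome X, 6314107 to 6320721), which with Gdf9 directs the cumulus cells, had 3002 and 3448 in the whole oocytes and 8482 and 9587 in 1/8 (log2 fold change 1.49, adjusted p = 0.000435). Gdf9 rose by 1.10 (adjusted p = 0.00399) and the receptor Kit by 1.13. Fgf8, a growth factor that promotes glycolysis in cumulus cells, fell (-2.17, adjusted p = 0.000423), as did Bmp6 at -1.82 and Gnas, the G protein that drives cAMP synthesis, at -1.29. The gap junction gene Gja4 had -0.82 (adjusted p = 0.0375). Growth factor and cAMP genes were 23.1% lower and 23.1% higher (all genes 8.66% and 7.08%), with counts of 7 lower and none higher with constGenes, 2 and 1 without 1/8 replicate 1, none and 3 without 1/8 replicate 2, 2 and 1 without whole replicate 1, and 1 and 1 without whole replicate 2. Growth factor and cAMP genes had a relative median from -1.01 without whole replicate 1 to -0.56 without 1/8 replicate 2, and a median of -0.13 and 0.02 against 10 and 14 cycles. In Bmp15 adjusted p was 0.0602 with constGenes. In Gdf9 the log2 fold change was 0.42 with constGenes (adjusted p = 0.324). It was 0.96 without 1/8 replicate 1, 1.03 without whole replicate 1 and 1.14 without whole replicate 2. The call was lost in 5 of 18 alternatives. In Fgf8 adjusted p was 0.0131 without 1/8 replicate 2 and 0.0125 without whole replicate 2.

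The subcortical maternal complex, a protein assembly under the oocyte membrane that embryos need to cleave, had 4 members higher and 1 lower of 8. Ooep (ENSMUSG00000032346, chromosome 9, 78376109 to 78378725) had 2941 and 2762 in the whole oocytes and 10286 and 14303 in 1/8, a rise of 2.11 (adjusted p = 7.57e-05), while Khdc3 fell. Padi6 rose by 1.25 (adjusted p = 0.00214), Nlrp2 by 2.02 and Nlrp4f by 1.76. Genes of the complex were 12.5% lower and 50% higher (all genes 8.66% and 7.08%), with counts of 2 lower and 2 higher with constGenes, and 2 and 3 without whole replicate 1. Genes of the complex had a relative median from 0.97 without whole replicate 2 to 1.40 without 1/8 replicate 2, and a median of -0.02 and -0.23 against 10 and 14 cycles. In Padi6 adjusted p was 0.203 with constGenes, 0.0265 without 1/8 replicate 1 and 0.0239 without whole replicate 2. Members of 1 complex thus moved in opposite directions, and together they held 25779 and 23673 in the whole oocytes and 22409 and 17356 CPM in 1/8. The other oocyte NLRP genes, maternal relatives of inflammasome proteins, had rises alone by the median ratio: 7 of 9 tested rose, with a median of 1.64. Nlrp14, whose mutation stops early embryos, had 3767 and 3343 in the whole oocytes and 11262 and 12954 in 1/8 (log2 fold change 1.77, adjusted p = 0.000121), and Nlrp4e had 69.6 and 161 and 329 and 467 (log2 fold change 1.82, adjusted p = 0.00165). NLRP genes were none lower and 77.8% higher (all genes 8.66% and 7.08%), with counts of none lower and none higher with constGenes, none and 3 without 1/8 replicate 2, and none and 4 without whole replicate 1. NLRP genes had a relative median from 1.33 without whole replicate 1 to 1.94 without 1/8 replicate 1, and a median of -0.39 and -0.36 against 10 and 14 cycles. In Nlrp14 adjusted p was 0.0152 with constGenes. In Nlrp4e adjusted p was 0.0443 with constGenes, 0.015 without 1/8 replicate 2 and 0.051 without whole replicate 1. Several NLRP genes are close copies of each other, so the division of reads among them is uncertain.

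Oocyte transcription factors had 5 of 13 members higher and 1 lower, with a median of 1.30. The rises were in the homeobox genes Obox1, Obox2 and Obox5, in Nobox and in Gtf2a1l, a germ cell subunit of general factor TFIIA. Obox5 had 323 and 529 normalized counts in the whole oocytes and 1720.5 and 2577 in 1/8 and rose by 2.34 (adjusted p = 2.65e-05). Obox1 and Obox2 share exons in the annotation, so their values are uncertain. Nobox, required for follicles to grow, rose by 1.11 (adjusted p = 0.00486), and Pou5f1, the pluripotency factor OCT4, fell (-1.07, adjusted p = 0.00689). Transcription factors were 7.69% lower and 38.5% higher (all genes 8.66% and 7.08%), with counts of 3 lower and 2 higher with constGenes, 1 and 3 without 1/8 replicate 1, none and 4 without 1/8 replicate 2, none and 3 without 1/4 replicate 1, none and 3 without 1/4 replicate 2, none and 2 without whole replicate 1, and none and 4 without whole replicate 2. Transcription factors had a relative median from 1.05 without whole replicate 2 to 1.38 with thinned counts, and a median of -0.06 and -0.40 against 10 and 14 cycles. In Obox2 adjusted p was 0.0115 with constGenes and 0.012 without whole replicate 1. In Nobox the log2 fold change was 0.43 with constGenes (adjusted p = 0.307). It was 0.89 without 1/8 replicate 1, 1.12 without whole replicate 1 and 1.07 without whole replicate 2. The call was lost in 7 of 18 alternatives. In Pou5f1 adjusted p was 0.0773 without 1/8 replicate 2, 0.0193 without whole replicate 1 and 0.0277 without whole replicate 2, with the call lost in 8 of 18 alternatives.

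The switch that activates CDK1 at the resumption of meiosis had 5 of 19 members higher and 2 lower (median 0.74). Ccnb1 (ENSMUSG00000041431, chromosome 13, 100778650 to 100786570), the cyclin partner of CDK1, had 193 and 294 in the whole oocytes and 1053 and 911 in 1/8, a rise of 2.03 (adjusted p = 0.00011). Mos, the kinase that starts the MAP kinase cascade of meiosis, rose by 1.84 (adjusted p = 0.000549), and so did the inhibitory kinase gene Wee2 (1.27) and the phosphatase regulators Mastl (1.08) and Arpp19 (1.34). The activating phosphatase gene Cdc25a had 1712 and 2853 in the whole oocytes and 349.7 and 659.6 in 1/8 and fell (-2.19, adjusted p = 0.000124), and the kinase gene Pkmyt1 fell (-1.64). Activators and inhibitors of the switch were thus found on both sides. CDK1 switch genes were 10.5% lower and 26.3% higher (all genes 8.66% and 7.08%), with counts of 4 lower and 1 higher with constGenes, 2 and 3 without 1/8 replicate 1, 2 and 2 without 1/8 replicate 2, and 2 and 2 without whole replicate 1. CDK1 switch genes had a relative median from 0.29 without whole replicate 2 to 1.05 without 1/8 replicate 2, and a median of 0.04 and 0.06 against 10 and 14 cycles. In Mos adjusted p was 0.0155 with constGenes, 0.0136 without 1/8 replicate 1 and 0.0183 without whole replicate 1.

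The anaphase-promoting complex and spindle checkpoint had 7 of 30 members higher and 5 lower (median -0.25). The scaffold and substrate subunits Anapc10 and Cdc27, the checkpoint genes Mad2l1, Mad2l1bp, Ttk and Bub1, and securin (Pttg1) were higher, whereas the catalytic subunit Anapc11, Anapc5, the activator Fzr1 and both ubiquitin-conjugating partners of the complex, Ube2c (-1.36) and Ube2s (-1.62), were lower. Checkpoint and complex genes were 16.7% lower and 23.3% higher (all genes 8.66% and 7.08%), with counts of 13 lower and 2 higher with constGenes, 2 and 4 without 1/8 replicate 2, and 3 and 3 without whole replicate 1. Checkpoint and complex genes had a relative median from -0.29 with constGenes to -0.10 without 1/8 replicate 1, and a median of 0.14 and 0.21 against 10 and 14 cycles. In Fzr1 adjusted p was 0.107 without 1/8 replicate 2 and 0.0655 without whole replicate 1, with the call lost in 8 of 18 alternatives. In Pttg1 the log2 fold change was 0.47 with constGenes (adjusted p = 0.280). It was 1.20 without 1/8 replicate 1, 1.19 without 1/8 replicate 2 and 0.82 without whole replicate 2. The call was lost in 5 of 18 alternatives. In the list for the spindle and the actin of asymmetric division, 4 of 21 rose and 2 fell, with a median of -0.01. Aurka, a kinase of spindle poles, had 253 and 394 in the whole oocytes and 1024 and 1145 in 1/8 (log2 fold change 1.76, adjusted p = 0.000187), and Fmn2, the actin nucleator that moves the spindle to the cortex, rose by 1.44. Rac1, a GTPase of the cortical actin cap, fell (-1.86, adjusted p = 0.000154), with 3949 and 6905 against 1328 and 1658. Spindle and actin genes were 9.52% lower and 19.0% higher (all genes 8.66% and 7.08%), with counts of 7 lower and none higher with constGenes, 1 and 3 without 1/8 replicate 1, 1 and 2 without 1/8 replicate 2, 1 and 4 without 1/4 replicate 1, 1 and 4 without 1/4 replicate 2, and 1 and 1 without whole replicate 1. Spindle and actin genes had a relative median from -0.49 without whole replicate 1 to 0.27 without whole replicate 2, and a median of 0.13 and 0.26 against 10 and 14 cycles. In Aurka adjusted p was 0.0124 with constGenes.

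Of 18 cohesin genes, Stag2 (1.48, adjusted p = 0.00465) and the acetyltransferase gene Esco2 (1.23) were higher, with a list median of 0.45. Cohesin genes were none lower and 11.1% higher (all genes 8.66% and 7.08%), with counts of 1 lower and none higher with constGenes, none and none without 1/8 replicate 2, none and 1 without 1/4 replicate 2, none and 1 without whole replicate 1, and none and none without whole replicate 2. Cohesin genes had a relative median from 0.06 without 1/8 replicate 2 to 0.88 without 1/8 replicate 1, and a median of -0.08 and 0.06 against 10 and 14 cycles. In Stag2 the log2 fold change was 0.76 with constGenes (adjusted p = 0.127). It was 1.19 without 1/8 replicate 2, 1.43 without whole replicate 1 and 1.49 without whole replicate 2. The call was lost in 5 of 18 alternatives. Calcium handling for egg activation had 1 of 13 members higher and 3 lower (median 0.12). Orai1, the plasma membrane channel that refills calcium stores, had 2756 and 2359 normalized counts in the whole oocytes and 815 and 469 in 1/8 and fell (-1.98, adjusted p = 8.91e-05). The calmodulin genes went opposite ways, Calm3 at -1.69 and Calm2 at 1.64 (adjusted p = 0.00299 and 0.000318), although they encode the same protein. Calcium genes were 23.1% lower and 7.69% higher (all genes 8.66% and 7.08%), with counts of 4 lower and none higher with constGenes, 1 and 1 without 1/8 replicate 1, 1 and 1 without 1/8 replicate 2, 2 and none without whole replicate 1, and 1 and 1 without whole replicate 2. Calcium genes had a relative median from -0.18 with at least 10 counts in each library compared to 0.18 without 1/8 replicate 1, and a median of -0.10 and 0.04 against 10 and 14 cycles. In Calm2 adjusted p was 0.0225 with constGenes and 0.0101 without whole replicate 1.

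Genes that store, modify and destroy mRNA held several falls that no alternative ended. Ythdc1 (ENSMUSG00000035851, chromosome 5, 86804221 to 86836659), the nuclear reader of m6A-methylated RNA, had 2084 and 5285 normalized counts in the whole oocytes and 314 and 341 in 1/8, a log2 fold change of -3.49 ± 0.38 (SE, adjusted p = 6.67e-06). In the same list of 15 m6A genes, the demethylase gene Alkbh5 fell (-1.22), while genes of the methyltransferase complex, Mettl3 (1.62), Wtap (1.69) and Virma (1.45), rose. These writers were thus higher and a reader and an eraser lower, with a list median of -0.19. Writers, readers and erasers were 13.3% lower and 20% higher (all genes 8.66% and 7.08%), with counts of 4 lower and none higher with constGenes, 1 and 2 without 1/8 replicate 1, 1 and 2 without 1/8 replicate 2, 3 and 1 without whole replicate 1, and 1 and 2 without whole replicate 2. Writers, readers and erasers had a relative median from -0.26 without whole replicate 2 to -0.09 without 1/8 replicate 1, and a median of -0.04 and 0.08 against 10 and 14 cycles. In Alkbh5 adjusted p was 0.0198 without 1/8 replicate 1, 0.0344 without 1/8 replicate 2 and 0.0202 without whole replicate 2. In Wtap adjusted p was 0.0237 with constGenes. The RNA exosome, which degrades RNA from its 3′ end, had 3 of 13 members lower: Exosc6 at -4.58, Exosc4 at -2.28 and Exosc5 at -1.84. Of the exosome genes tested, 23.1% were called lower and none higher (all genes 8.66% and 7.08%), with counts of 4 lower and none higher with constGenes. Exosome genes had a relative median from -0.66 without whole replicate 1 to -0.03 without 1/8 replicate 1, and a median of 0.37 and 0.54 against 10 and 14 cycles. Exosc6 had 367 and 368 against 15.9 and 13.9 (adjusted p = 3.86e-06), but its exon overlaps Aars. Of 22 genes of deadenylation and decay, the CCR4-NOT subunits Cnot11 (-2.04) and Cnot3 (-1.07) and Zfp36l2 (-2.13), which recruits the deadenylase to AU-rich mRNA, fell. Deadenylation and decay genes were 13.6% lower and none higher (all genes 8.66% and 7.08%), with counts of 5 lower and none higher with constGenes, 2 and 1 without 1/8 replicate 1, and 2 and 1 without whole replicate 2. Deadenylation and decay genes had a relative median from 0.03 without whole replicate 1 to 0.57 without whole replicate 2, and a median of 0.06 and 0.16 against 10 and 14 cycles. In Zfp36l2 adjusted p was 0.0123 without 1/8 replicate 1. Btg4, the adaptor that triggers maternal mRNA decay at maturation, had 0.88 (adjusted p = 0.0503), and the median of that list was 0.53.

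Among 18 genes of mRNA storage, 3 rose and 2 fell (median -0.09). Pabpn1l, an oocyte poly(A)-binding protein, had 232 and 443 in the whole oocytes and 2141 and 1093 in 1/8 (log2 fold change 2.28, adjusted p = 0.000152). Dazl, a germ cell activator of translation, and Zar1l rose by 1.49 and 1.38, while Zar1 and Ybx2, which coats stored mRNA, fell (-1.68 and -1.61). Of the storage genes tested, 11.1% were called lower and 16.7% higher (all genes 8.66% and 7.08%), with counts of 6 lower and 1 higher with constGenes. Storage genes had a relative median from -0.14 with constGenes to 0.07 without whole replicate 2, and a median of -0.01 and -0.04 against 10 and 14 cycles. Of 18 small RNA pathway genes, edgeR called 0 in either direction; 2 were lower and 2 higher at an unadjusted p under 0.05, and DESeq2 called 1 lower and 1 higher. Small RNA pathway genes were none lower and none higher (all genes 8.66% and 7.08%), with counts of 2 lower and none higher with constGenes, and 1 and none without 1/8 replicate 1. Small RNA pathway genes had a relative median from 0.02 without whole replicate 2 to 0.36 without 1/8 replicate 2, and a median of 0.02 and -0.17 against 10 and 14 cycles. Splicing factors had 6 of 31 members in each direction (median -0.08). Srsf2 (ENSMUSG00000034120, chromosome 11, 116849901 to 116853094), a serine- and arginine-rich factor that selects exons, had 4479 and 6428 against 709.9 and 584 and fell (-3.07, adjusted p = 4.53e-06); its exons overlap Mettl23 and Mfsd11 on the other strand. The small nuclear ribonucleoprotein genes Snrpc, Snrpd3, Snrpb2 and Snrpe were higher by 1.41 to 2.04, and Snrpf was lower at -1.90. Splicing factors were 19.4% lower and 19.4% higher (all genes 8.66% and 7.08%), with counts of 11 lower and 1 higher with constGenes, 3 and 1 without 1/8 replicate 2, 3 and 2 without whole replicate 1, and 7 and 1 without whole replicate 2. Splicing factors had a relative median from -0.13 with replicate number in the fit to 0.07 without 1/8 replicate 1, and a median of 0.38 and 0.47 against 10 and 14 cycles.

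Chromatin genes also split. DNA methylation had 3 of 12 members higher and 1 lower (median 1.00). Dppa3 (ENSMUSG00000046323, chromosome 6, 122626410 to 122630272), which shields the maternal genome from demethylation, had 938 and 1062 in the whole oocytes and 4105 and 5409 in 1/8 and rose by 2.25 ± 0.29 (SE, adjusted p = 1.73e-05). The enzyme that sets methylation in growing oocytes, Dnmt3a, and its cofactor Dnmt3l rose by 1.41 and 1.59, and the maintenance enzyme gene Dnmt1 had 0.73 (adjusted p = 0.0408). DNA methylation genes were 8.33% lower and 25% higher (all genes 8.66% and 7.08%), with counts of 1 lower and 1 higher with constGenes, 1 and 1 without 1/8 replicate 1, and 1 and 1 without whole replicate 1. DNA methylation genes had a relative median from 0.01 with at least 10 counts in each library compared to 1.01 with only the 4 libraries compared, and a median of -0.28 and -0.14 against 10 and 14 cycles. Trim28 (ENSMUSG00000005566, chromosome 7, 12999114 to 13031035), the corepressor that keeps imprints and retroelements silent, had 1807 and 3794 against 407 and 456 and fell (-2.70, adjusted p = 2.41e-05). Histone variants, linker histone and chaperones had 4 of 19 members higher and 5 lower (median -0.54). The oocyte linker histone gene H1foo rose by 1.63 (adjusted p = 0.00084) and the somatic linker histone gene H1f0 fell (-2.22). Ubn1 (ENSMUSG00000039473, chromosome 16, 5050057 to 5086289), of the HIRA complex that loads histone H3.3, fell from 4067 and 7498 to 743 and 745 (log2 fold change -2.96, adjusted p = 6.67e-06), and its partner Cabin1 (-1.30). Histone variant and chaperone genes were 26.3% lower and 21.1% higher (all genes 8.66% and 7.08%), with counts of 10 lower and none higher with constGenes, 4 and 1 without 1/8 replicate 1, 5 and 1 without whole replicate 1, and 5 and 2 without whole replicate 2. Histone variant and chaperone genes had a relative median from -0.66 without whole replicate 1 to -0.42 with at least 10 counts in each library compared, and a median of 0.29 and 0.30 against 10 and 14 cycles. In H1foo adjusted p was 0.0344 with constGenes, 0.0184 without 1/8 replicate 1 and 0.0224 without whole replicate 1.

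Of 30 genes of histone methylation and Polycomb, Eed and Suv39h2 fell and the median was -0.15. Histone methylation genes were 6.67% lower and none higher (all genes 8.66% and 7.08%), with counts of 10 lower and none higher with constGenes, 1 and none without 1/8 replicate 1, 1 and none without 1/8 replicate 2, 1 and none without 1/4 replicate 1, and 1 and none without 1/4 replicate 2. Histone methylation genes had a relative median from -0.19 with constGenes to 0.11 with at least 10 counts in each library compared, and a median of -0.26 and -0.07 against 10 and 14 cycles. In Suv39h2 adjusted p was 0.069 without 1/8 replicate 1, 0.0119 without 1/8 replicate 2 and 0.0408 without whole replicate 2, with the call lost in 7 of 18 alternatives. Replication-dependent histones, whose mRNAs mostly lack a poly(A) tail, had 32 of 67 members tested and 4 lower (median -1.11). Hist3h2ba fell (-2.46, adjusted p = 0.000179), with 266 and 308 in the whole oocytes and 63.2 and 35.7 in 1/8. Replication-dependent histone genes were 12.5% lower and none higher (all genes 8.66% and 7.08%), with counts of 8 lower and none higher with constGenes, 2 and none without 1/8 replicate 1, 1 and none without 1/8 replicate 2, 2 and none without 1/4 replicate 1, 2 and none without whole replicate 1, and 2 and none without whole replicate 2. Replication-dependent histone genes had a relative median from -1.54 without 1/8 replicate 1 to 1.20 with at least 10 counts in each library compared, and a median of 0.39 and 0.32 against 10 and 14 cycles. These genes are near-identical copies, so the division of reads among them is uncertain. DNA replication had 5 of 22 members higher and 2 lower (median 0.54). Besides Rpa3, the origin-binding genes Orc1, Orc3 and Orc5 and the loading factor Cdc6 rose by 1.29 to 1.89, while Cdt1, Cdc6's partner in loading the helicase, fell (-1.57, adjusted p = 0.000377), as did Mcm9 at -1.86 (adjusted p = 0.000259). Replication genes were 9.09% lower and 22.7% higher (all genes 8.66% and 7.08%), with counts of 3 lower and 1 higher with constGenes, 2 and 3 without 1/8 replicate 1, and 2 and 1 without whole replicate 1. Replication genes had a relative median from 0.41 without whole replicate 2 to 0.68 without 1/8 replicate 1, and a median of 0.23 and 0.34 against 10 and 14 cycles. In Orc5 adjusted p was 0.142 with constGenes and 0.0164 without whole replicate 1. Of 20 DNA damage genes, the end-joining gene Xrcc5 rose by 2.10 (adjusted p = 0.000183) and the checkpoint kinase gene Chek1 by 1.23 (adjusted p = 0.00382), with a median of 0.64. DNA damage genes were none lower and 10% higher (all genes 8.66% and 7.08%), with counts of 2 lower and 1 higher with constGenes, none and 1 without 1/8 replicate 2, and none and 1 without whole replicate 1. DNA damage genes had a relative median from 0.42 without whole replicate 1 to 0.75 without 1/8 replicate 1, and a median of -0.20 and -0.22 against 10 and 14 cycles. In Chek1 adjusted p was 0.226 with constGenes, 0.0114 with only the 4 libraries compared, 0.0345 without 1/8 replicate 2 and 0.0733 without whole replicate 1.

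Growth signalling, redox defence, pyruvate use and stress were followed in 4 lists. The list for PI3K, FOXO3 and mTOR, the pathway that wakes primordial follicles, had 1 of 19 members higher and 3 lower (median -0.17). Foxo1 had 4805 and 10872 in the whole oocytes and 1586 and 1557 in 1/8 and fell (-2.32, adjusted p = 9.16e-05), and the kinase gene Stk11 and the mTORC1 scaffold gene Rptor fell (-2.05 and -1.68). Foxo3, which keeps primordial follicles dormant, had -0.69 (adjusted p = 0.0642), and Rheb, the GTPase that turns on mTORC1, rose by 1.48 (adjusted p = 0.00176). Genes of this pathway were 15.8% lower and 5.26% higher (all genes 8.66% and 7.08%), with counts of 4 lower and none higher with constGenes, and 2 and none without whole replicate 1. Genes of this pathway had a relative median from -0.28 without whole replicate 2 to -0.06 without 1/8 replicate 1, and a median of -0.25 and -0.09 against 10 and 14 cycles. In Rheb adjusted p was 0.0792 with constGenes and 0.0482 without whole replicate 1. In redox defence the peroxiredoxin genes Prdx1 and Prdx3 rose by 2.54 and 1.82 and Gclm, of glutathione synthesis, fell (-2.09), out of 19 tested (median 0.33). Prdx1 had 422 and 308 in the whole oocytes and 2150.4 and 2129 in 1/8 (adjusted p = 9.65e-06). Redox genes were 5.26% lower and 10.5% higher (all genes 8.66% and 7.08%), with counts of 5 lower and 1 higher with constGenes, 2 and 2 without 1/8 replicate 1, 1 and 1 without 1/8 replicate 2, 1 and 1 without whole replicate 1, and 1 and 1 without whole replicate 2. Redox genes had a relative median from -0.11 without 1/8 replicate 1 to 0.36 with thinned counts, and a median of 0.31 and 0.25 against 10 and 14 cycles. Pyruvate, which feeds the oocyte, is used by the pyruvate dehydrogenase complex, and its subunit genes Pdhx and Dld rose by 1.69 and 1.77 among 17 metabolic genes (median -0.26), while the abundant Ldhb had 0.37 (adjusted p = 0.453). Pyruvate and lactate genes were none lower and 11.8% higher (all genes 8.66% and 7.08%), with counts of 2 lower and none higher with constGenes, and none and 1 without whole replicate 1. Pyruvate and lactate genes had a relative median from -0.32 with DESeq2 to 0.06 without whole replicate 1, and a median of 0.14 and 0.03 against 10 and 14 cycles. In Pdhx adjusted p was 0.0143 with constGenes. In Dld adjusted p was 0.0477 with constGenes and 0.0317 without whole replicate 1. Of 16 stress and immediate early genes, the chaperone gene Hsp90aa1 rose by 1.64, and the early response genes Ier2 and Dusp1 fell (-3.75 and -2.12), with a list median of -0.34. Stress and early genes were 12.5% lower and 6.25% higher (all genes 8.66% and 7.08%), with counts of 6 lower and none higher with constGenes, 1 and 1 without 1/8 replicate 2, and 2 and 2 without whole replicate 1. Stress and early genes had a relative median from -0.55 without whole replicate 2 to 0.23 without whole replicate 1, and a median of 0.09 and 0.28 against 10 and 14 cycles. In Hsp90aa1 adjusted p was 0.0195 with constGenes. In Ier2 the log2 fold change ran over the alternatives from -8.79 to -3.21, the latter without whole replicate 2, where the call was lost. In Dusp1 adjusted p was 0.0108 without 1/8 replicate 2.

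Genes of the protein-making machinery were called in both directions. Cytoplasmic ribosomal proteins had 8 of 78 members higher and 12 lower (median -0.16). Rps15a rose by 2.62 (adjusted p = 0.000121) and Rpl8 fell (-2.22, adjusted p = 2.65e-05), with 1791 and 1508 in the whole oocytes and 377 and 331 in 1/8. Many of these genes have near-identical pseudogenes, so their counts are uncertain. Cytoplasmic ribosomal genes were 15.4% lower and 10.3% higher (all genes 8.66% and 7.08%), with counts of 22 lower and 5 higher with constGenes, 5 and 5 without 1/8 replicate 1, 5 and 6 without 1/8 replicate 2, and 4 and 6 without whole replicate 1. Cytoplasmic ribosomal genes had a relative median from -0.39 without whole replicate 2 to 0.10 without whole replicate 1, and a median of 0.38 and 0.46 against 10 and 14 cycles. Mitochondrial ribosomal proteins had 12 of 78 members higher and 18 lower, from Mrps18a at -2.53 (adjusted p = 9.05e-06) to Mrpl1 at 3.18 (median -0.42). Mitochondrial ribosomal genes were 23.1% lower and 15.4% higher (all genes 8.66% and 7.08%), with counts of 37 lower and 3 higher with constGenes, 11 and 5 without 1/8 replicate 2, 12 and 3 without whole replicate 1, and 16 and 6 without whole replicate 2. Mitochondrial ribosomal genes had a relative median from -0.66 without whole replicate 1 to -0.35 without 1/8 replicate 1, and a median of 0.55 and 0.46 against 10 and 14 cycles. Translation factors had 7 of 65 higher and 9 lower (median 0.02). Eif4a2, an RNA helicase of initiation, rose by 2.67 (adjusted p = 3.35e-05), and Eif4e, which binds the mRNA cap, by 2.19, while its inhibitors Eif4ebp1 and Eif4ebp2 fell (-3.50 and -1.52). Translation factors were 13.8% lower and 10.8% higher (all genes 8.66% and 7.08%), with counts of 15 lower and 4 higher with constGenes, 5 and 8 without 1/8 replicate 1, and 4 and 3 without whole replicate 1. Translation factors had a relative median from -0.07 without whole replicate 1 to 0.16 with at least 10 counts in each library compared, and a median of 0.14 and 0.10 against 10 and 14 cycles. In Eif4ebp1 adjusted p was 0.139 without 1/8 replicate 1 and 0.232 without whole replicate 1, with the call lost in 8 of 17 alternatives.

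The respiratory chain is encoded by both the nuclear and the mitochondrial genome. Nuclear oxidative phosphorylation genes had 11 of 83 members higher and 20 lower (median -0.08). Cox4i1, of cytochrome c oxidase, had 6004 and 6419 in the whole oocytes and 2412 and 1973 in 1/8 and fell (-1.50, adjusted p = 0.000554), whereas Ndufs4 and, at 2.45, Ndufb3 of complex I rose. Oxidative phosphorylation genes were 24.1% lower and 13.3% higher (all genes 8.66% and 7.08%), with counts of 29 lower and 8 higher with constGenes, 10 and 11 without 1/8 replicate 1, 12 and 8 without 1/8 replicate 2, and 10 and 9 without whole replicate 1. Oxidative phosphorylation genes had a relative median from -0.25 without 1/8 replicate 2 to 0.17 without 1/8 replicate 1, and a median of 0.46 and 0.52 against 10 and 14 cycles. In Cox4i1 adjusted p was 0.0114 without 1/8 replicate 2. Of the 13 protein genes of the mitochondrial genome, 7 were tested and mt-Cytb, mt-Nd1 and mt-Co1 rose (median 1.26); the other 6 were at 0 in all 4 libraries. The cytochrome b gene mt-Cytb had 133 and 277 in the whole oocytes, 661 and 721 in 1/8 and 1134 and 959 at 10 cycles, so 1/8 lay between the references (log2 fold change 1.77, adjusted p = 0.00056). Mitochondrial genome mRNAs were none lower and 42.9% higher (all genes 8.66% and 7.08%), with counts of none lower and none higher with constGenes, none and 1 without 1/8 replicate 2, and none and none without whole replicate 1. Mitochondrial genome mRNAs had a relative median from 0.87 without whole replicate 1 to 1.82 without whole replicate 2, and a median of -0.67 and -0.63 against 10 and 14 cycles. In mt-Cytb adjusted p was 0.0259 with constGenes and 0.02 without whole replicate 1. In mt-Nd1 adjusted p was 0.0563 with constGenes, 0.0304 without 1/8 replicate 2 and 0.0582 without whole replicate 1. In mt-Co1 the log2 fold change was 0.51 with constGenes (adjusted p = 0.249). It was 1.04 without 1/8 replicate 2, 1.01 without whole replicate 1 and 1.41 without whole replicate 2. The call was lost in 5 of 18 alternatives. Nuclear copies of mitochondrial DNA make these counts uncertain.

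The proteasome degrades proteins tagged with ubiquitin, and its genes moved both ways, with a balance that differed with the scaling. Proteasome subunits had 14 of 44 members higher and 4 lower (median 0.30). The rises took in ring subunits of the core, such as Psma2, Psma1, Psma4, Psma6, Psmb1, Psmb3 and Psmb7, and ATPases of the cap, such as Psmc2, Psmc5 and Psmc6. Psma7 had 3963 and 3699 in the whole oocytes and 4292 and 4827 in 1/8 and did not pass (log2 fold change 0.25, adjusted p = 0.505), and the assembly chaperone gene Psmg4 fell (-1.89, adjusted p = 0.000238). Proteasome genes were 9.09% lower and 31.8% higher (all genes 8.66% and 7.08%), with counts of 11 lower and 5 higher with constGenes, 2 and 11 without 1/8 replicate 1, 2 and 9 without 1/8 replicate 2, and 2 and 6 without whole replicate 1. Proteasome genes had a relative median from 0.16 without whole replicate 2 to 0.45 without whole replicate 1, and a median of 0.34 and 0.33 against 10 and 14 cycles. Of 30 ubiquitin E2 enzymes, which hand ubiquitin to ligases, 6 fell and Ube2e3 rose (median 0.01). Ube2r2, the partner of SCF ligases, fell (-2.29, adjusted p = 0.000797). Ubiquitin E2 genes were 20% lower and 3.33% higher (all genes 8.66% and 7.08%), with counts of 9 lower and none higher with constGenes, 2 and none without 1/8 replicate 2, 6 and none without 1/2 replicate 1, 6 and none without 1/2 replicate 2, 6 and none without 1/4 replicate 1, 6 and none without 1/4 replicate 2, and 5 and none without whole replicate 2. Ubiquitin E2 genes had a relative median from -0.20 without whole replicate 2 to 0.15 with at least 10 counts in each library compared, and a median of 0.23 and 0.28 against 10 and 14 cycles. In Ube2r2 adjusted p was 0.0103 without 1/8 replicate 2. In Ube2e3 the log2 fold change was 0.60 with constGenes (adjusted p = 0.224). It was 1.03 without 1/8 replicate 2, 1.25 without whole replicate 1 and 1.34 without whole replicate 2. The call was lost in 10 of 18 alternatives.

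The medians of many lists differed with the reference. Against whole oocytes at 10 and 14 cycles, with all-gene medians of 0.00 and 0.02, they were -0.39 and -0.36 for the NLRP genes, -0.06 and -0.40 for oocyte transcription factors, -0.28 and -0.14 for DNA methylation and -0.67 and -0.63 for mRNAs of the mitochondrial genome, on the other side of 0 from the values at 18 cycles. So were those of the subcortical maternal complex, DNA damage genes, kinesins and Zfp genes. The proteasome had 0.34 and 0.33, near its value at 18 cycles. Mitochondrial ribosomal proteins, with 0.55 and 0.46, replication-dependent histones, with 0.39 and 0.32, and histone variants and chaperones, with 0.29 and 0.30, had negative medians at 18 cycles and positive ones here. The same turn was found for the anaphase-promoting complex and checkpoint, spindle and actin, the RNA exosome, nuclear oxidative phosphorylation, cytoplasmic ribosomal proteins, splicing factors, pyruvate and lactate metabolism and stress genes.

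The lists differed in base composition and length. The median GC content and exon length were 46.5% and 1981 bases for the egg coat, 41.5% and 3724 bases for the NLRP genes and 37.1% and 1144 bases for the mitochondrial genome, but 52.1% and 6242 bases for DNA methylation, all with positive medians of the fold change. They were 55.1% and 3900 bases for growth factors and cAMP, 55.2% and 734 bases for replication-dependent histones and 49.9% and 2394 bases for mitochondrial ribosomal proteins, but 44.5% and 6283 bases for m6A genes and 45.9% and 3172 bases for splicing factors, all with negative medians. Over all genes tested the medians were 49.0% and 3859 bases, and the part of composition in the fold changes of lists and single genes was not tested. Relative to the median of all genes, list medians took the other sign in 9 of the 18 alternatives for translation factors, in 4 for spindle and actin and for ubiquitin E2 genes, and in 3 for calcium handling, mRNA storage, histone methylation and splicing. They did so in 2 for cytoplasmic ribosomal proteins, redox defence, stress genes and granulosa markers. In 1 of 18 they did so for oxidative phosphorylation, nuclear pore, replication-dependent histones and pyruvate and lactate metabolism, and for the theca and blood markers in 1 of 17.

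**Figure D4:**
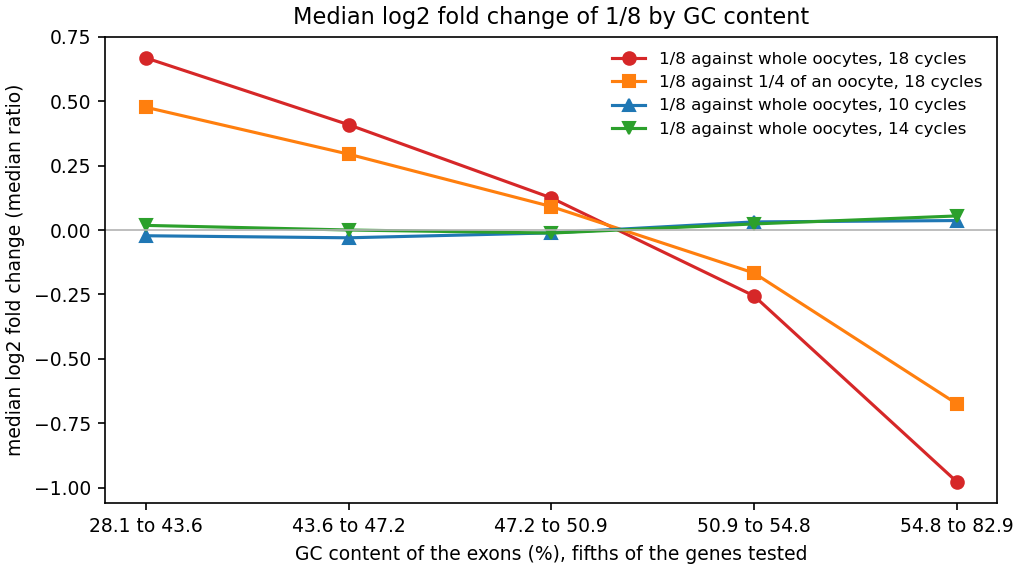
Median log2 fold change (median ratio) of 1/8 against 4 references, in quintiles of the genes tested by GC content of their exons (%). Against whole oocytes at 18 cycles the medians run from 0.67 in the AT-rich quintile to -0.98 in the GC-rich quintile, and against those at 10 and 14 cycles they stay between -0.03 and 0.05.

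Base composition ran in parallel with the fold changes. Genes called lower had a median GC content of 54.9% and those called higher 45.0%, beside 48.8% in genes not called. In the quintile of genes with the fewest GC bases, 71 of 2956 were lower and 396 higher, and in the quintile with the most, 644 of 2955 were lower and 29 higher. The median log2 fold change went from 0.67 to -0.98 across the quintiles, and in protein-coding genes alone from 0.59 to -0.98. Across 14776 genes Spearman's rho between GC content and fold change was -0.398, and -0.390 against 1/4. Against the whole oocytes at 10 and 14 cycles it was 0.030 and 0.016. Genes are not independent replicates, so these coefficients are descriptions, and the comparisons share the 1/8 libraries. Exon length gave a rho of -0.035 against whole oocytes at 18 cycles and of -0.220 and -0.169 against those at 10 and 14 cycles.

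Long intergenic non-coding RNAs (lincRNAs) rose more often than they fell. Of 670 lincRNAs tested, 66 were higher and 10 lower, with a median log2 fold change of 1.33, beside 916 higher and 1171 lower of 12344 protein-coding genes (median -0.03). Their share of the counts on genes was 1.17% and 1.62% in the whole oocytes and 2.23% and 2.55% in 1/8, beside 2.02% and 1.98% at 10 cycles. Against 1/4 the lincRNA median was 0.89, and against whole oocytes at 10 and 14 cycles it was 0.00 and -0.06. Antisense transcripts had 24 of 729 higher (3.29%) and 48 lower (6.58%), with a median of 0.03. Transcripts still to be experimentally checked, a class of the annotation called TEC, had 2 of 191 higher (1.05%) and 16 lower (8.38%) (median -0.48). Of all genes 7.08% were higher and 8.66% lower. Calls were concentrated in abundant genes: 603 lower and 380 higher in the quintile with the most counts, and 14 lower in the quintile with the fewest.

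The sets of genes detected differed between the groups. At least 1 count was found for 13813 genes in both whole oocytes, for 14666 in both 1/8 libraries and for 12676 in all 4. There were 671 genes in both 1/8 libraries and neither whole oocyte, of which 123 were lincRNAs and 120 processed pseudogenes, with a median GC content of 46.8%. There were 279 in both whole oocytes and neither 1/8 library, of which 194 were protein coding, with a median GC content of 53.8%. With all libraries thinned to the smallest total of 1702062 counts, these numbers became 501 and 404. The highest mean was 49 and 37 counts in the sets from all counts, and 12 and 21 in the thinned sets.

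Replicate libraries of 1/8 varied about as much as whole oocytes at 18 cycles. In the quintile of genes with the most counts the median absolute log2 ratio between replicates was 0.33 in 1/8 and 0.29 in the whole oocytes, and 0.19 in those at 10 cycles. In the quintile with the fewest it was 1.34, 1.18 and 0.74. Khdc3 had 14306 and 6808 in the 1/8 replicates, Ubn1 743 and 745, and Ythdc1 314 and 341. In Foxo1, Ythdc1, Trim28 and Ubn1 the spread lay in the whole oocytes, where replicate 2 had the higher value in each.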

How the data were processed

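The values deposited by the authors are raw counts (cutadapt 2.5, STAR 2.7.2a on mm10 with ERCC sequences, HTSeq 0.9.1) for 55573 genes and 92 ERCC molecules, without normalization or molecular identifiers. Reads on no feature made up 7.07% and 10.1% in the whole oocytes and 7.75% and 8.32% in 1/8, and ambiguous reads 2.98% to 4.10%. Whether reads were counted by strand was not settled, so genes that overlap on opposite strands are uncertain. GENCODE mouse release 21 (GRCm38) supplied symbols, coordinates, exon length and GC content and held 55480 of the genes.

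The quasi-likelihood test of edgeR 4.0.16 (R 4.3.3) was fitted to the 8 libraries at 18 cycles in 4 groups. The libraries of 1/2, 1/4 and 1/8 were dilutions of the same 2 lysates, but the fit treated all 8 as independent. The spread behind its p values therefore rests on few oocytes, and the contrast with 1/4 was not paired. With only the 4 libraries compared in the fit, 1780 of the 2328 calls were kept. Genes needed 5 or more counts in 2 or more libraries, and calls an adjusted p (Benjamini-Hochberg) under 0.01. Size factors were the median ratio over all genes, for composition, or over the 42 ERCC molecules that passed the filter, for amount. Whole oocytes at 10 and 14 cycles were compared in a fit of all 12 libraries. Normalized counts are counts divided by the median-ratio size factor, and SE is that of the log2 fold change. Wilson intervals hold counting error alone, because copies made by amplification are counted as separate reads. The library with 1702062 counts limits precision for rare genes.

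The libraries and the gene lists were chosen with earlier results of these data known. The named genes were the 10 largest rises and falls among called protein-coding genes without exon overlap, with a mean of at least 50 normalized counts over the 4 libraries and groups that did not overlap, 3 each way of other biotypes, the 8 genes with the most counts in whole oocytes, and in each list the 3 most abundant members and the called members with the largest rise and fall. Other list members were named to complete a list's count after their values were seen. Alternatives were DESeq2 1.42.0, TMM, constGenes, total counts, other ERCC choices, other filters, thinned counts, only the 4 libraries, a replicate block and leaving out each library. Chosen after seeing the data were DESeq2 for 10 and 14 cycles, leaving out libraries for counts per ERCC count, setting these against whole oocytes at 10 and 14 cycles, 1/2 and 1/4, and the median ratio over the genes that pass the filter.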

Additional observations from a re-analysis of the deposited data

How the results depend on the processing

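With only 2 libraries a group, 1 library could decide a call. Leaving out each of the 8 libraries gave 684 to 1188 genes lower and 289 to 953 higher by the median ratio, 11080 to 12881 lower and 0 to 0 higher with ERCC (edgeR; 0 higher at an unadjusted p under 0.05 and 0 by DESeq2), a median of -5.25 to -4.26 with ERCC, and 90 to 544 lower and 12 to 255 higher against 1/4. For counts on genes per ERCC count the log2 difference ran from -5.29 to -4.60. Other alternatives that moved a result were constGenes, with 2964 lower and 221 higher, and at least 10 counts in each of the 4 libraries, with 8394 lower of 8395 by ERCC, fewer genes being tested. Against 1/4, DESeq2 called 384 higher, and without a filter 833 were lower and 383 higher. Against 10 cycles DESeq2 called 18 lower and 26 higher, and against 14 cycles 46 and 38. Except for fewer genes tested, the cause was not tested. The ERCC median was -4.46 without a filter and -5.43 with thinned counts. The median ratio over the genes that pass the filter gave 1285 lower and 1044 higher.

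With the replicate number as a block, 1473 genes were lower and 1168 higher by the median ratio, 12684 lower with ERCC, and 682 lower and 291 higher against 1/4. The numbers were not taken to pair libraries. Deviations of same-numbered libraries correlated at 0.084 over 8395 genes for whole oocytes and 1/8, which came from different oocytes, and at 0.0189 over 9484 genes for 1/4 and 1/8, which came from the same lysates.

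The other values, 96 of 120 for the comparisons and 4576 of 5285 for named genes, lists and classes, were labelled unmoved. Counts of genes and replicate spreads were so labelled within a fixed ratio to the main value, whichever genes made them up. With only the 4 libraries compared, 996 genes lower and 793 higher counted as unmoved, though 1780 of 2328 calls were kept. Amounts and list medians were judged by the replicate spread, and class medians by a fixed difference. Named genes had to keep their sign and their side of the threshold. The list medians that took the other sign are given with the lists. Genes outside the rule for named genes were followed through the alternatives only as members of their lists. Few ERCC counts in the whole oocytes limit every value of amount.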

Other observations

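Zinc finger genes named Zfp, many of them repressors of retroelements, had 33 of 283 tested members higher in 1/8 and 23 lower (median log2 fold change 0.58 beside 0.03 over all genes). Zfp943, at 9.77 and 9.48 normalized counts in the whole oocytes and 70.6 and 153 in 1/8, rose by 3.48 (adjusted p = 0.000309), and Zfp580, at 26.9 and 40.3 and 1.47 and 0, fell (-4.69, adjusted p = 0.000434). The latter fold is uncertain because 1/8 replicate 2 had 0 counts. Here too, the percentages of a list are shares of its tested members called in each direction, not sizes of change. Zfp genes were 8.13% lower and 11.7% higher (all genes 8.66% and 7.08%), with counts of 43 lower and 9 higher with constGenes, 12 and 18 without 1/8 replicate 2, and 17 and 7 without whole replicate 1. Zfp genes had a relative median (list minus all genes) from 0.12 with at least 10 counts in each library compared to 0.61 without whole replicate 1, and a median of -0.22 and -0.26 against 10 and 14 cycles. Its median GC content was 44.8%, beside 49.0% over all genes, and the part of composition was not tested.

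Nuclear pore genes had 4 of 26 members higher and 2 lower (median 0.19). Nup35, a linker of the pore ring, rose by 2.23 (adjusted p = 0.00076), and the membrane anchor gene Pom121 fell (-1.76, adjusted p = 0.000485). Nuclear pore genes were 7.69% lower and 15.4% higher (all genes 8.66% and 7.08%), with counts of 4 lower and none higher with constGenes, 1 and 3 without 1/8 replicate 1, 1 and 2 without 1/8 replicate 2, 2 and 1 without whole replicate 1, and none and 1 without whole replicate 2. Nuclear pore genes had a relative median from -0.02 without whole replicate 1 to 0.27 with at least 10 counts in each library compared, and a median of 0.05 and 0.12 against 10 and 14 cycles. In Nup35 adjusted p was 0.0119 with constGenes and 0.0242 without whole replicate 1. In Pom121 adjusted p was 0.0105 without whole replicate 2. Of 31 kinesin and related genes, Kif20b and Kif2c, motors of cytokinesis and of kinetochores, rose by 1.57 and 1.20, and Kif1bp, which binds kinesins, fell (-1.56), with a list median of 0.30. Kinesin genes were 3.23% lower and 6.45% higher (all genes 8.66% and 7.08%), with counts of 5 lower and none higher with constGenes, 1 and none without 1/8 replicate 2, 1 and 1 without 1/4 replicate 1, 1 and 1 without 1/4 replicate 2, 1 and none without whole replicate 1, and 1 and 1 without whole replicate 2. Kinesin genes had a relative median from 0.03 without whole replicate 1 to 0.38 with at least 10 counts in each library compared, and a median of -0.28 and -0.10 against 10 and 14 cycles. In Kif20b adjusted p was 0.0806 with constGenes, 0.0181 without 1/8 replicate 2 and 0.0365 without whole replicate 1. On the X chromosome 49 of 431 genes were higher and 13 lower, beside 7.08% and 8.66% of all genes, with a median of 0.69, and of -0.02 and 0.01 against whole oocytes at 10 and 14 cycles. Of 13 granulosa markers 8 were tested, 6 of them with a negative log2 fold change, with a median of -1.07 and a lowest value of -4.54 in Inha, which did not pass (adjusted p = 0.0204). Cyp19a1, the aromatase gene, was the only one called and had 22.0 and 30.8 normalized counts in the whole oocytes, 142 and 119 in 1/8 and 84.8 and 107 at 10 cycles (log2 fold change 2.34, adjusted p = 0.000673). Granulosa markers were none lower and 12.5% higher (all genes 8.66% and 7.08%), with counts of 1 lower and none higher with constGenes, none and none without whole replicate 1, and 1 and 1 without whole replicate 2. Granulosa markers had a relative median from -1.73 without whole replicate 2 to 1.57 with at least 10 counts in each library compared, and a median of -2.17 and -1.86 against 10 and 14 cycles. In Cyp19a1 adjusted p was 0.0117 with constGenes and 0.0188 without whole replicate 1. Of the 3 theca and blood markers tested, edgeR called 0, 0 had an unadjusted p under 0.05, and DESeq2 called 0. Their median log2 fold change was -0.50, and -2.62 and -1.12 against whole oocytes at 10 and 14 cycles.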
